A study of Mus musculus with 2 samples.

Results

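The pancreatic lipases and their helpers, an amylase and a ribonuclease were followed in single cells of mouse pancreatic tumours. These were 8 genes of 32285, taken by symbol: Pnlip, Pnliprp1, Pnliprp2, Cel, Clps, Pla2g1b, Amy2a5 and Rnase1. Each was described over the barcodes with at least 500 genes, at least 1000 unique molecular identifiers (UMIs, the tags that mark single captured transcripts) and at most 20% mitochondrial UMIs. The tumours came from mice of 6 weeks of age in 2 groups, with 1 library of dissociated cells each. EL1 mice, an FVB/N line written EL1-Luc/EL1-Tag, carried the SV40 large T antigen and firefly luciferase, each behind the rodent pancreatic elastase I promoter, which is active in acinar cells. WTg mice carried the same transgenes and, in addition, a Mettl3 open reading frame behind the ubiquitous CAG promoter (EL1-Luc/EL1-Tag x CAG-Mettl3). The CAG-Mettl3 line was made in BL/6 mice and crossed with EL1, so strain background and transgene cannot be told apart. How many animals gave each library, and of which sex, is not stated. Mettl3 encodes the methyltransferase that places N6-methyladenosine on RNA.

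The acinar cells of the exocrine pancreas make digestive enzymes in large amounts, pack them in zymogen granules and release them into the duct. Fat digestion needs several of them together: pancreatic lipase cleaves triglycerides, colipase anchors it to droplets covered by bile salts, carboxyl ester lipase takes cholesterol esters, and a secreted phospholipase A2 takes phospholipids. Amylase and pancreatic ribonuclease leave the same cells and act on starch and RNA. The transcription factor complex PTF1, formed by PTF1A with RBPJL or RBPJ, and the nuclear receptor NR5A2 are known drivers of these genes.

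Over all kept cells the 8 genes together made up 2.05% of the UMIs of EL1 and 3.69% of those of WTg. Pnlip, Pnliprp1, Pnliprp2 and Rnase1 were 4.56 to 10.2 times higher in the WTg library and Amy2a5 2.11 times, Clps and Cel differed by at most 1.34 times, and Pla2g1b was 2.46 times lower in WTg. With 1 library a group there is no replicate, no difference could be tested, and the intervals given are exact 95% intervals that cover counting error only.

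The 3 lipase genes of the PNLIP family lie side by side on chromosome 19 within 125 kb (GRCm38), all on the plus strand and all protein coding. Pnlip (ENSMUSG00000046008) spans chr19:58652498-58681788, Pnliprp1 (ENSMUSG00000042179) spans chr19:58728887-58744169, and Pnliprp2 (ENSMUSG00000025091) spans chr19:58759719-58777534. Their levels nevertheless differed widely within each library, as given below. The promoter windows of these neighbours are therefore shown, from 250 bases before to 50 bases after the RefSeq start site (GRCm38.p6), on the strand of the gene. Those of Cel and Amy2a5 are shown because they held the other matches among the members. Windows were found for 7 of the 8 members, all but Clps. Capitals mark the letters CACCTG and CAGCTG (E-boxes, the portion of the PTF1 site that PTF1A reads), TTTCCCA (the RBPJ-type portion) and AAGGTCA (an NR5A2-type site), searched on both strands.
Pnlip, chr19:58670115-58670414: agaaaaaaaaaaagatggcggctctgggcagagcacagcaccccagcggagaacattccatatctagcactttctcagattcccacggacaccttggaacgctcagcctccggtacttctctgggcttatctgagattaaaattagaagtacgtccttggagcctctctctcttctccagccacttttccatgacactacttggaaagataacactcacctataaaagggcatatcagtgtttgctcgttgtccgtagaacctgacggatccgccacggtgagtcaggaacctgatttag
Pnliprp1, chr19:58728637-58728936: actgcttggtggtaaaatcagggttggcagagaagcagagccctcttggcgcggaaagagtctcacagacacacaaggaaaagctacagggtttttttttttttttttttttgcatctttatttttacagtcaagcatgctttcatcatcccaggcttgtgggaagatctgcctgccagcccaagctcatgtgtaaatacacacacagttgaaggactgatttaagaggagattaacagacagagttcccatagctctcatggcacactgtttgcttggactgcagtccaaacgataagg
Pnliprp2, chr19:58759473-58759772: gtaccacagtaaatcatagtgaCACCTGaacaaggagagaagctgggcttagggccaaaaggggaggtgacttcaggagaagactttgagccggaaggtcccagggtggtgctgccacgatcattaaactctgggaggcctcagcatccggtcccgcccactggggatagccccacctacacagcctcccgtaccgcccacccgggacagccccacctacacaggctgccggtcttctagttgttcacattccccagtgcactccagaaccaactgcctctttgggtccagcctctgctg
Cel, chr2:28563354-28563653: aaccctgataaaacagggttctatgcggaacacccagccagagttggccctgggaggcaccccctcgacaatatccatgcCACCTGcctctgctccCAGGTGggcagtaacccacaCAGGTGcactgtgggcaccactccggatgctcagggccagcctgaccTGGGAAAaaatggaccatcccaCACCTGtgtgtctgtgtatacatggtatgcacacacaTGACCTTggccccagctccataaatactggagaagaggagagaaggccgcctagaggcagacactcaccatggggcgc
Amy2a5, chr3:113258650-113258949: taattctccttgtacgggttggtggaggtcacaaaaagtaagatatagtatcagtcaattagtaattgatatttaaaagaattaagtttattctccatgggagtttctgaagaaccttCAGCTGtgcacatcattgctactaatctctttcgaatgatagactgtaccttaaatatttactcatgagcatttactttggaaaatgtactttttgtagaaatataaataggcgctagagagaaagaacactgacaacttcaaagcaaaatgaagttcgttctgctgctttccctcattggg

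The Cel window held 6 matches, which were 4 of CACCTG, 1 of TTTCCCA and 1 of AAGGTCA. The Pnliprp2 window held 1 match of CACCTG at -228 from the start site, and the Amy2a5 window 1 match of CAGCTG, a palindrome, at -132. The windows of Pnlip, Pnliprp1, Pla2g1b and Rnase1 held none of these letters. Of 32544 windows in the table, 20.3% held CACCTG, 16.4% CAGCTG, 8.03% TTTCCCA and 4.71% AAGGTCA. The RefSeq start of Pnlip lies 17867 bases inside the GENCODE gene, so its window is not at the outermost annotated start. A match is a description of letters and not of binding. Pnliprp1, which was among the most abundant of the 8 genes in WTg, held no match, and neither did Pnlip, the least abundant.

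The other members are protein-coding genes on separate chromosomes (GRCm38). Cel (ENSMUSG00000026818) lies at chr2:28555795-28563403 on the minus strand and overlaps Gm13381 on the opposite strand by 1207 bases. Clps (ENSMUSG00000024225, chr17:28558149-28560766, minus strand) holds Mir6969 on its own strand. Pla2g1b (ENSMUSG00000029522) lies at chr5:115466262-115474722 on the plus strand. Amy2a5 (ENSMUSG00000074268) lies at chr3:113247178-113258837 and Rnase1 (ENSMUSG00000035896) at chr14:51144998-51146785, both on the minus strand. Whether counting used strand is not given in the sources used here. Amy2a5 has near-identical copies, Amy2a1 to Amy2a4, and reads that fit several copies may have been left out or split, so its level is uncertain.

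The filter kept 1113 of 1621 EL1 barcodes (37961287 UMIs, median 26543) and 905 of 1488 WTg barcodes (33007683 UMIs, median 34836). The libraries shared 15 barcodes as deposited and 0 after filtering. A count of 3 UMIs, the limit that a count of 0 allows, corresponds to 0.0790 CPM (UMIs in 1000000 UMIs of the same cells) in EL1 and 0.0909 CPM in WTg. Mettl3, the check of the labels, was at 15.1 CPM in EL1 and at 66.7 in WTg. The labels call the cells epithelial, and all 16 acinar markers were detected in both libraries, and summed to 89326 CPM for EL1 and 106892 for WTg. Of 9 ductal markers, Cftr and Mmp7 were at 0 in both libraries. The kept cells also included 50 EL1 and 67 WTg cells that carried immune markers.

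Among the lipases, Pnlip, pancreatic triglyceride lipase itself, was the least abundant of the 8 genes in both libraries. It had 96 UMIs in EL1 (2.53 CPM, interval 2.05 to 3.09) and 796 in WTg (24.1 CPM, interval 22.5 to 25.9). The log2 fold, the log2 of the CPM in WTg over the CPM in EL1, was 3.25 (2.95 to 3.57). After each cell had been thinned to 2000 UMIs, a Pnlip UMI was found in 0.476% of EL1 cells (interval 0.155 to 1.11) and in 5.14% of WTg cells (interval 3.75 to 6.87). This used 1051 and 836 cells, since 62 and 69 had fewer UMIs than that. At full depth the shares were 5.75% and 22.9%. The transcript was concentrated in few cells: the 10% of WTg cells with the most Pnlip held 85.3% of its UMIs, and 1 WTg cell reached 97 UMIs, against a maximum of 6 in EL1.

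Pnliprp1, a relative of pancreatic lipase for which little or no activity on triglycerides is known, was the most abundant lipase transcript of WTg. It had 135881 UMIs in EL1 (3579 CPM, interval 3560 to 3599) and 539274 in WTg (16338 CPM, interval 16294 to 16381). The log2 fold was 2.19 (2.18 to 2.20), and by difference in CPM this gene alone accounted for most of the gap in the summed level of the 8. The median cell had 2705 CPM in EL1, against 13039 in WTg. The share of cells with a UMI after thinning, 89.1% in EL1 (interval 87.0 to 90.9) and 786 of 836 cells in WTg (interval 92.2% to 95.5%), was near its ceiling in both, while the amount per cell differed.

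Pnliprp2, the family member that also takes galactolipids and phospholipids, showed the widest ratio of the 8, with an interval inside that of Pnlip. With each cell weighted equally, its log2 fold (3.34) was under that of Pnlip (3.68). Pnliprp2 had 837 UMIs in EL1 (22.0 CPM, interval 20.6 to 23.6) and 7438 in WTg (225 CPM, interval 220 to 231). The log2 fold was 3.35 (3.25 to 3.46). A UMI was found after thinning in 2.66% of cells in EL1 (interval 1.78 to 3.83) and in 19.7% in WTg (interval 17.1 to 22.6), and at full depth in 211 of 1113 and 475 of 905 cells. The 3 neighbouring genes were thus all higher in WTg, while Pnlip stayed the lowest and Pnliprp1 by far the highest of them in each library. One tag is read at the 3′ end of a molecule, so these levels need no scaling by gene length.

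Clps and Cel, which work beside the lipases, differed least between the libraries. Clps, colipase, was the most abundant of the 8 genes in EL1, with 449343 UMIs (11837 CPM, interval 11802 to 11872), against 522294 in WTg (15823 CPM, interval 15780 to 15866). The log2 fold was 0.42 (0.41 to 0.42). Cel, the bile-salt-stimulated carboxyl ester lipase, had 167099 UMIs in EL1 (4402 CPM, interval 4381 to 4423) and 116825 in WTg (3539 CPM, interval 3519 to 3560), and its log2 fold was -0.31 (-0.33 to -0.30). Of the 3 members above 1000 CPM, only Cel was lower in WTg. After thinning, Clps was found in 93.4% of EL1 cells and 92.1% of WTg cells, with intervals that overlapped (91.8 to 94.9 and 90.1 to 93.8). Cel was found in 90.2% (88.2 to 91.9) and 85.6% (83.1 to 88.0).

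Pla2g1b, the secreted phospholipase A2 of pancreatic juice, was the member furthest lower in WTg. It had 15685 UMIs in EL1 (413 CPM, interval 407 to 420) and 5540 in WTg (168 CPM, interval 163 to 172). The log2 fold was -1.30 (-1.34 to -1.26). A UMI was found in 315 of 1051 thinned cells of EL1 (interval 27.2% to 32.8%) and in 14.1% of those of WTg (interval 11.8 to 16.7), and at full depth in 55.3% and 39.3%. In WTg the transcript was carried by a minority: the top 10% of cells held 80.4% of its UMIs, against 61.6% in EL1.

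Amy2a5, a pancreatic alpha-amylase gene, had 9162 UMIs in EL1 (241 CPM, interval 236 to 246) and 16826 in WTg (510 CPM, interval 502 to 518). The log2 fold was 1.08 (1.04 to 1.12). Its share of thinned cells was 33.1% in EL1 (interval 30.3 to 36.0) and 50.2% in WTg (interval 46.8 to 53.7), while the unthinned shares, 81.1% and 81.0%, showed no such gap. The UMIs of Amy2a1 to Amy2a5 together came to 424 CPM for EL1 and 738 for WTg, with a log2 fold of 0.80 (0.77 to 0.83), and Amy2a5 was 56.9% of them in EL1 and 69.1% in WTg. The summed family was therefore higher in WTg too, under the fold of 2 that Amy2a5 alone passed.

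Rnase1, pancreatic ribonuclease, had 1725 UMIs in EL1 (45.4 CPM, interval 43.3 to 47.6) and 10616 in WTg (322 CPM, interval 316 to 328). The log2 fold was 2.82 (2.75 to 2.90). A UMI was found in 6.28% of the thinned cells of EL1 (interval 4.89 to 7.92) and in 31.9% of those of WTg (interval 28.8 to 35.2). The median cell of EL1 had none, and the median cell of WTg had 69.7 CPM.

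**Figure D1:**
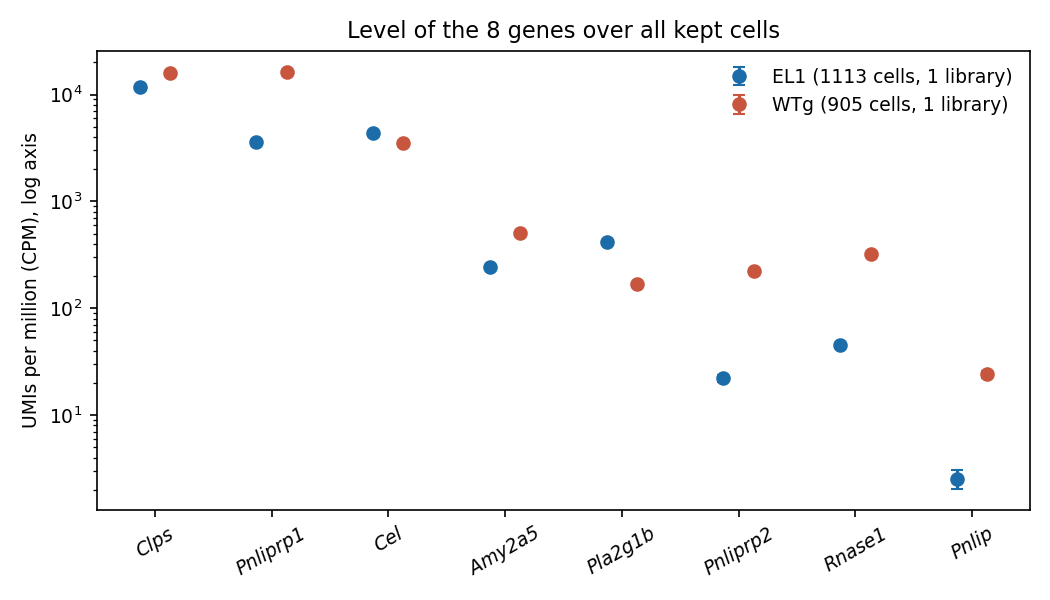
Level of each of the 8 genes in the kept cells of the EL1 library (1113 cells, blue) and the WTg library (905 cells, red), as CPM on a log axis. Points are 1 library each and bars are exact 95% counting intervals, mostly smaller than the points. Pnlip, Pnliprp2, Rnase1, Pnliprp1 and Amy2a5 lie higher in WTg, Clps and Cel lie close together, and Pla2g1b lies lower in WTg.

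Counted at a log2 fold of 1, 5 of the 8 members were higher in WTg and 1 was lower. Of the 16167 genes that reached 10 UMIs in the 2 libraries combined, 10.1% were higher and 6.90% lower by that size. The median log2 fold was 1.63 over the 8 members and -0.14 over all genes. The sum of the 8 genes was 20543 CPM for EL1 (interval 20497 to 20588) and 36949 for WTg (interval 36884 to 37015), with a log2 fold of 0.85 (0.84 to 0.85). As a count of members per cell after thinning, in cells outside the immune-, endothelial- and erythroid-like groups described next, 43.1% of 967 EL1 cells and 22.9% of 763 WTg cells had 3 or fewer of the 8. No cell in either library had all 8, and 7 were found in 1.70% of these WTg cells and in none of EL1.

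Clustering of both libraries together, with the 8 genes and their relatives left out, gave 18 clusters, which are called by number and leading genes. Clusters 0 (Sycn, Prss1, Dmbt1), 6 (Ctrl, Spp1, Cela3b) and 9 (Cela3b, Try4, Prss3) were acinar-like, clusters 2 (Resp18, Penk, Chga) and 3 (Serpina1c, Pcsk2, Chgb) neuroendocrine-like, and cluster 10 macrophage-like. Others were endothelial-like (14, with the fibroblast gene Dcn also among its leading genes), erythroid-like (15), T or NK-like (16) and B-like (17), and the rest were left unnamed. Pnliprp2 in cluster 0, Pla2g1b in clusters 1 and 4, Pnlip in cluster 6 and Rnase1 in clusters 6 and 9 were among the 10 leading genes although clustering did not use them. Pnliprp2 was also among those of the erythroid-like cluster 15, where 1 WTg cell held 95 of its UMIs and 18 EL1 cells held 1. Clusters 1, 2, 4, 7, 11 and 13 were made of EL1 cells but for at most 2 cells, and clusters 0, 6 and 8 of WTg cells but for at most 6, so such a cluster may stand for its library and not for a cell type. Clusters 15, 5, 9, 17 and 16 were shallow, with medians of 1867, 2037.5, 3461, 3759 and 7481 UMIs a cell. Levels were compared over the 20 cluster-by-library groups with at least 20 cells, 12 of EL1 and 8 of WTg.

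Immune-like cells were taken as the background, since these enzymes are products of acinar cells. Whether their counts come from free RNA was not tested. In 50 EL1 cells of this kind the 8 genes summed to 375 CPM (interval 327 to 427), and in 67 WTg cells to 296 (interval 265 to 330), which was 1.76% and 0.764% of the level in the cells outside the immune-, endothelial- and erythroid-like groups. Pnliprp1 was at 157 CPM there in EL1 and at 153 in WTg, and Pnlip had 0 UMIs in both. After thinning, a Pnliprp1 UMI was found in 10 of 47 immune-like cells of EL1 and 21 of 60 of WTg, and a Clps UMI in 8 and 15 of them. Median depths were 6881.5 and 8161 UMIs, against 28329 and 36121 in the other cells. Shares of cells for these abundant genes may thus carry a background of that size. For Pnlip, Pnliprp2, Pla2g1b, Amy2a5 and Rnase1 at most 1 immune-like cell in each library had a UMI after thinning. At full depth Amy2a5 was found in 4.0% of these cells in EL1 and 7.46% in WTg, and Pla2g1b in 8.0% and 2.99%.

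Pnliprp1 separated the libraries at the level of clusters with at least 20 cells of a library. Its level was 10070 to 26208 CPM in the 7 WTg groups other than the macrophage-like one. All of these lay above the highest EL1 group of that size, cluster 9, with 5382 CPM (5046 to 5734). EL1 clusters 0 and 6, with 6 and 3 cells, fell under that minimum. Together with cluster 9 they make up the 36 acinar-like EL1 cells, which had 10934 CPM, inside the WTg range. Within WTg the acinar-like clusters led, with 26208 CPM in cluster 9, 24560 in cluster 6 and 18111 in cluster 0, but the neuroendocrine-like cluster 3 still had 15049 CPM. Within EL1 most groups lay between 2611 and 5382 CPM, and the Atp4b- and Klk1-rich cluster 11 was lower, at 1203 CPM (1167 to 1241). Of the 19 pairs of neighbours in the order of levels, 6 had intervals that overlapped.

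Pnliprp2 and Rnase1 were highest in acinar-like cells of WTg, each in another cluster. Pnliprp2 was highest in WTg cluster 0, with 354 CPM (344 to 365), where 244 cells, 27.0% of the library, held 57.6% of its UMIs. The next WTg groups, clusters 5, 9 and 8, had 233, 220 and 211 CPM, with overlapping intervals. Rnase1 was highest in WTg cluster 9, with 1014 CPM (912 to 1124), then in cluster 6 with 702 CPM and cluster 0 with 398 CPM. Among EL1 clusters with at least 20 cells, both genes peaked in cluster 11. Pnliprp2 had 93.2 CPM (83.2 to 104) there and Rnase1 188 CPM (174 to 204). The Pnliprp2 value rests on 26 of 77 cells, 1 of which held 115 of the 313 UMIs, and the median cell had 0. The interval overlapped that of EL1 cluster 3, with 72.5 CPM (54.0 to 95.4). EL1 clusters 0 and 6, with 6 and 3 cells, fell under that minimum. Pnliprp2 was at 276 and 24.3 CPM in them, and Rnase1 at 201 and 413 CPM. Cluster 11 held 6.92% of EL1 cells, 37.4% of the EL1 UMIs of Pnliprp2 and 36.7% of those of Rnase1. It was at the same time the EL1 group with little Pnliprp1 and Amy2a5 (67.0 CPM). Rnase1 was at 7.72 CPM (5.78 to 10.1) in the neuroendocrine-like EL1 cluster 2 and at 1.66 CPM in the immune-like cells of EL1.

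Pnlip was concentrated still more. WTg cluster 6, with 121 cells or 13.4% of the library, held 492 of its 796 UMIs, 61.8%, at 102 CPM (93.2 to 111), and 57 of those cells had a UMI. In EL1, 48 of the 96 UMIs lay in cluster 7, a cluster led by histone genes, in 23 of 93 cells. In the other EL1 groups Pnlip had at most 16 UMIs, and 17 of the 19 pairs of neighbours in its order overlapped, so an order among those groups is not detectable at this depth.

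Clps was high in nearly every tumour group. Among groups with at least 20 cells it was highest in WTg clusters 6, with 33931 CPM (33767 to 34096), and 9, with 31478 CPM (30897 to 32068). EL1 clusters 9, with 24794 CPM, and 11, with 17943 CPM, followed. EL1 cluster 6, with only 3 cells, had 42824 CPM (41677 to 43994). The neuroendocrine-like groups had 10190 CPM in EL1 cluster 2, 15798 CPM in EL1 cluster 3 and 14967 CPM in WTg cluster 3. Even the endothelial-like cells of EL1 had 4511 CPM of Clps (4385 to 4640) over 33 cells, with a median cell of 967 CPM and a maximum of 18047 CPM, while 13 such cells of WTg had 162 CPM. Whether those EL1 barcodes hold more than 1 cell was not tested.

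Cel and Pla2g1b had their highest levels in EL1. Cel peaked in the neuroendocrine-like EL1 cluster 2, with 7450 CPM (7385 to 7514). This was above all acinar-like groups with at least 20 cells, whose levels ran from 2983 CPM in WTg cluster 6 to 4141 CPM in WTg cluster 9. The other neuroendocrine-like groups did not share this level, with 1381 CPM in EL1 cluster 3 and 4821 CPM in WTg cluster 3. Among clusters with at least 20 cells of a library, Pla2g1b was highest in EL1 cluster 9, with 951 CPM (813 to 1106). The unnamed EL1 clusters 4, with 713 CPM (691 to 735), and 1, with 548 CPM (533 to 563), both led by S100g or Thbs1, followed. EL1 clusters 0 and 6, with 6 and 3 cells, fell under that minimum. They had higher levels, 1367 CPM (1240 to 1505) and 2147 CPM (1896 to 2422). Clusters 1 and 4 held 33.3% and 26.6% of its EL1 UMIs. It was low in neuroendocrine-like cells, with 125 CPM in EL1 cluster 2, 8.53 CPM in EL1 cluster 3 and 23.1 CPM in WTg cluster 3.

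Amy2a5 was the most even of the less abundant members. Outside the macrophage- and endothelial-like groups its level lay between 67.0 CPM in EL1 cluster 11 and 667 CPM (584 to 757) in WTg cluster 9. The WTg clusters 0 and 3, acinar-like and neuroendocrine-like, had 579 CPM (566 to 593) and 567 CPM (550 to 584), with intervals that overlapped. Of 19 pairs of neighbours in its order, 13 overlapped.

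**Figure D2:**
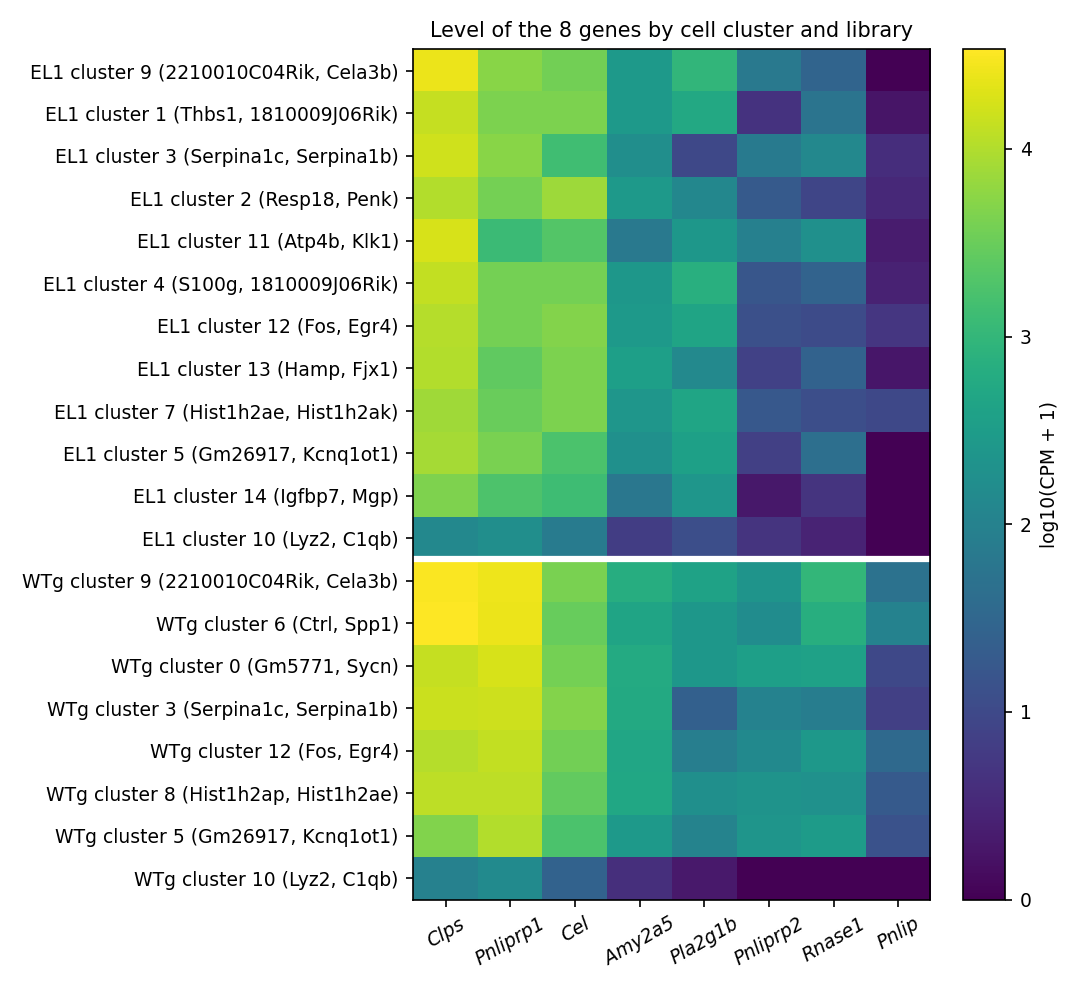
Level of the 8 genes, as log10(CPM + 1), in each cluster with at least 20 cells of a library, EL1 clusters above the white line and WTg clusters under it, each sorted by the summed level. Row labels give the library, the cluster and its 2 leading genes that are not members. The Pnliprp1 column is brighter in WTg, Clps and Cel are bright in all but the macrophage-like rows, which are dark for all 8 genes.

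The makeup of the summed 8 genes differed accordingly. Clps was 59.3% of the 8-gene UMIs in EL1 cluster 1, 59.8% in cluster 4 and 82.2% in cluster 11, and Pnliprp1 was 18.4%, 18.0% and 5.51% there. In WTg cluster 0 Pnliprp1 came first, with 49.2%, and Clps had 36.2%. In cluster 3, which both libraries shared, Pnliprp1 was 23.0% of the sum in EL1 and 42.3% in WTg. Cel made up 33.9% of the sum in EL1 cluster 2 and 4.73% in WTg cluster 6.

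**Figure D3:**
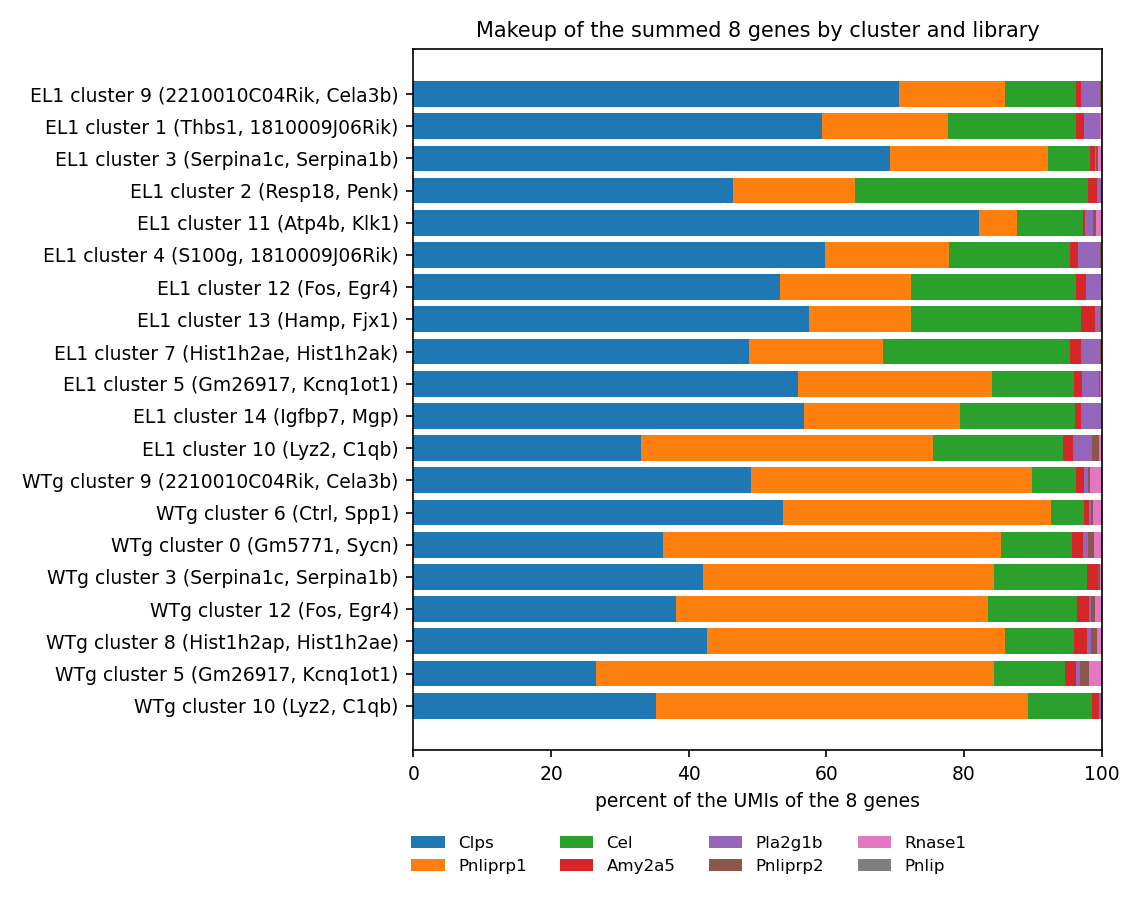
Makeup of the summed 8 genes in each cluster and library with at least 20 cells, as the percent of the 8-gene UMIs that each gene holds. Each bar is 1 cluster of 1 library, named by its leading genes. The Pnliprp1 segment is 38.9% to 57.9% in all WTg bars and, outside the macrophage-like bar, at most 28.2% in EL1. The bars pool UMIs, and in EL1 cluster 5, the bar with 28.2%, a few Clps-rich cells weigh on the sum, while Pnliprp1 exceeds Clps in 63.3% of its cells.

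In single cells the change of order between Clps and Pnliprp1 was visible too. Outside the immune-, endothelial- and erythroid-like groups, Pnliprp1 had more UMIs than Clps in 89 of 1012 EL1 cells, or 8.79% (interval 7.12 to 10.7), and in 517 of 824 WTg cells, or 62.7% (interval 59.3 to 66.1). Of the 89 EL1 cells, 38 lay in the shallow cluster 5, where Pnliprp1 exceeded Clps in 63.3% of 60 EL1 cells (interval 49.9 to 75.4) and 88.9% of 90 WTg cells (interval 80.5 to 94.5), so this EL1 group had the order seen in WTg. Pnliprp1 was 23.1% of the UMIs of both genes in EL1 and 50.8% in WTg. Cel exceeded Pnliprp1 in 66.2% of these EL1 cells (63.2 to 69.1) and in 2.18% of the WTg cells (1.30 to 3.43). Since a ratio of genes within a cell does not depend on the cell's total, depth does not enter these shares through scaling. The share in immune-like cells, taken as background, was 55.0% Pnliprp1 (47.2 to 62.6) in EL1 and 58.0% (52.1 to 63.7) in WTg. In barcodes with over 20% mitochondrial UMIs it was 47.4% (46.0 to 48.9) and 65.1% (64.3 to 65.8). The immune-like cells and these barcodes of EL1 both stood above the 23.1% of the other kept EL1 cells. Their part in the result was not tested.

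**Figure D4:**
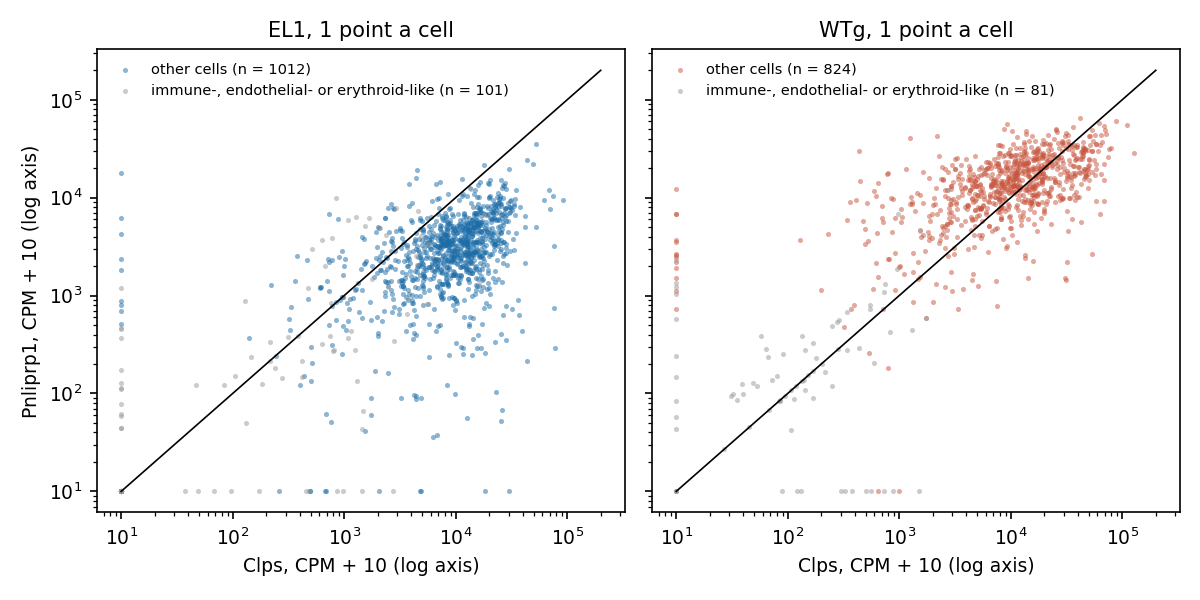
Level of Pnliprp1 (vertical) against Clps (horizontal) in each kept cell of EL1 (left) and WTg (right), as CPM + 10 on log axes. The black line marks equal levels, coloured points are cells outside the immune-, endothelial- and erythroid-like groups (1012 in EL1, 824 in WTg) and grey points are cells in them. Pnliprp1 exceeds Clps in 8.79% of the coloured EL1 cells and 62.7% of the coloured WTg cells.

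Clusters 3, 5, 9 and 12 had at least 20 cells of each library outside the macrophage-like group, and allowed the libraries to be set side by side within a cluster. Cluster 12 was led by Fos, Egr4 and Hspa1a, and cluster 5 by Gm26917 and Malat1. Pnliprp1 was higher in WTg in all 4, by log2 folds of 1.52, 1.26, 2.28 and 1.74 in clusters 3, 5, 9 and 12. Pnliprp2 was higher in all 4 as well, by 0.45 (0.04 to 0.89) in cluster 3, 1.71 (0.82 to 2.72) in cluster 9 and 3.60 (2.81 to 4.51) in cluster 12. In cluster 5 it had 1 UMI in EL1 and 107 UMIs in WTg, a log2 fold of 5.19 (2.68 to 10.51). In these clusters 5.48%, 13.4%, 5.91% and 5.64% of all genes with at least 10 UMIs were higher in WTg by a log2 fold of 1, and 15.9%, 11.2%, 29.1% and 11.3% lower. Of the members, 5, 3, 5 and 4 were higher by that size there and 0, 1, 1 and 1 lower, out of 8 but for cluster 5, where 7 reached 10 UMIs. Amy2a5 was higher by 1.71, 1.24 and 0.76 in clusters 3, 9 and 12, and in cluster 5 its ratio of 0.58 had an interval that reached 0 (-0.01 to 1.22).

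In pooled level Rnase1 and Pla2g1b did not keep 1 direction over these clusters. Rnase1 was higher in WTg by 2.75 in cluster 5, 5.17 in cluster 9 (5 UMIs in EL1 and 359 in WTg) and 4.71 in cluster 12. It was lower in the neuroendocrine-like cluster 3, by -0.63 (-0.95 to -0.30). The 91 EL1 UMIs there lay in 9 of 25 cells, and the median cell had 0 in both libraries. The share of cells with an Rnase1 UMI went the other way, 36.0% in EL1 and 41.3% in WTg. Pla2g1b was lower in WTg in clusters 5, 9 and 12, by -1.82, -1.22 and -2.37, and higher in cluster 3, by 1.44 (0.29 to 2.90), on 6 UMIs in EL1 and 172 in WTg. Cel was higher by 1.80 (1.71 to 1.90) in cluster 3 and lower by -0.42 in cluster 12. Clps lay between -0.85 and 0.34 in the 4 clusters. In cluster 5, which had the lowest, the pooled EL1 level of 8307 CPM lay above the 4429 CPM that 10% of its cells exceeded, with a highest cell of 61623 CPM. The median cell of cluster 5 went the other way, with 960 CPM in EL1 and 1766 in WTg. For Pnlip in cluster 12, 5 EL1 UMIs stood against 34 from WTg, a log2 fold of 3.04 (1.68 to 4.75). In cluster 9 the EL1 count of Pnlip was 0 over 27 cells, and the 18 WTg UMIs lay in 6 of 60 cells. With 3 in place of that 0, the log2 fold was 1.59, with an interval that began at 1.14 and had no upper end.

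**Figure D5:**
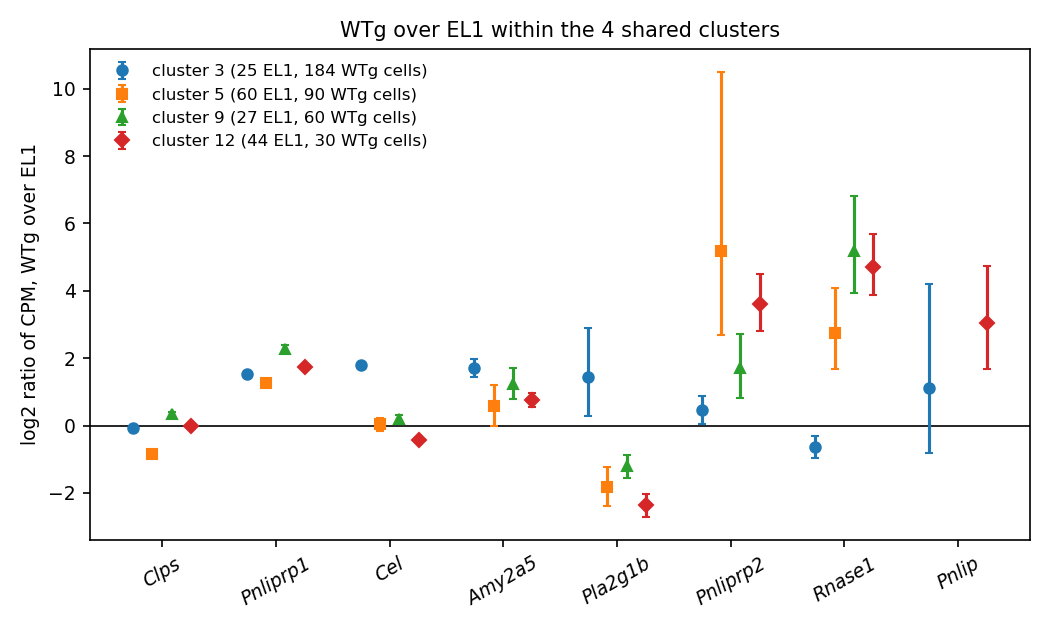
Log2 ratio of CPM, WTg over EL1, for each of the 8 genes within clusters 3, 5, 9 and 12, the clusters with at least 20 cells of both libraries outside the macrophage-like group. Bars are exact 95% counting intervals, and a gene at 0 UMIs in a library is not drawn. Pnliprp1 and Pnliprp2 lie above 0 in all 4 clusters, and Pla2g1b and Rnase1 lie on both sides of 0.

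By named class the libraries could be set side by side only with different clusters behind them. The acinar-like class held 36 EL1 cells, 27 of them in cluster 9, and 425 WTg cells, 244 in cluster 0 and 121 in cluster 6. The summed 8 genes stood at 40094 CPM in EL1 (interval 39592 to 40600) and 44723 in WTg (interval 44623 to 44822) there, with a log2 fold of 0.16. By a log2 fold of 1, 2 members were higher in WTg and 1 lower, against 8.47% and 20.5% of all genes. The count of higher members was 5 at clustering resolution 2, where Pnliprp1, Pnliprp2 and Amy2a5 passed as well, and 3 under the stricter cell filter. Pla2g1b was lower, with a log2 fold of -2.50 on 855 and 4296 UMIs, and Pnlip and Rnase1 were higher, Rnase1 by 1.36 and Pnlip on 1 UMI in EL1 and 614 in WTg. Pnliprp1 had 10934 and 20079 CPM, with a log2 fold of 0.88. The neuroendocrine-like class held 250 EL1 cells, 225 of them in cluster 2, and 184 WTg cells, all in cluster 3. The 8 genes summed to 22054 and 35616 CPM there, with a log2 fold of 0.69. By a log2 fold of 1, 5 members were higher and only Pla2g1b, with 114 and 23.1 CPM, was lower, against 5.91% and 7.46% of all genes. The 5 became 4 at resolution 0.5, without Amy2a5 (0.57), and 3 at resolution 2, without Amy2a5 (0.73) and Pnlip (0.93). The share of cells that were acinar-like was 3.23% of EL1 (interval 2.28 to 4.45) and 47.0% of WTg (interval 43.7 to 50.3). Within the 4 shared clusters the summed level was higher in WTg by log2 folds of 0.23 to 0.87. The part of the acinar-like share in the difference over all cells was not tested.

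Across thinned cells the rank correlations of the members were low to moderate. After thinning, Spearman's rho between Pnliprp1 and Clps was 0.40 over 967 EL1 cells and 0.51 over 763 WTg cells, and between Pnliprp1 and Cel 0.31 and 0.32. All other pairs had lower values in both libraries. In EL1, however, Pnlip, Pnliprp2 and Rnase1 had a UMI in only 0.476%, 2.66% and 6.28% of all thinned cells. Most of their values were tied at 0, so a low rho cannot show whether these members are linked. These cells share a library and a depth, so the values are descriptions. Across the 17 cluster-by-library groups that were neither macrophage- nor endothelial-like, Pearson's r of log2(CPM + 10) was 0.84 between Pnliprp1 and Amy2a5 and 0.84 between Pnliprp2 and Rnase1. It was 0.05 between Pnliprp1 and Cel and -0.40 between Cel and Rnase1. The 3 lipase neighbours had r of 0.78 (Pnlip and Pnliprp1), 0.71 (Pnliprp1 and Pnliprp2) and 0.63 (Pnlip and Pnliprp2), over groups that partly follow the libraries.

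Of 11052 genes with at least 200 UMIs, the one most like each member was sought across all 20 groups and again across the 17 that were neither macrophage- nor endothelial-like. Pnlip was most like Ctrl, a chymotrypsin-like protease (r = 0.88), and Pnliprp1 most like Cuzd1, a zymogen granule protein (0.96). Pnliprp2 was most like Sycn, or syncollin, which binds the granule membrane (0.89), and Rnase1 most like Cela3b, an elastase (0.86). Clps was most like Erp27, a chaperone of the endoplasmic reticulum (0.98), and Cel most like Fxyd1 (0.97), followed by the secreted Reg1. Pla2g1b was most like the trypsinogen Prss2 (0.86), and Amy2a5 most like its copy Amy2a4 (0.95), with which it may share reads. Across the 17 groups only Pnlip, Pnliprp1 and Pnliprp2 kept their closest gene (r of 0.87, 0.94 and 0.89). The closest gene was then Edem2 for Cel (0.83), Ndufa13 for Clps (0.80, with Erp27 also at 0.80), Angptl1 for Pla2g1b (0.78), Cuzd1 for Amy2a5 (0.93) and Sostdc1 for Rnase1 (0.86). The values above for Cel, Clps and Pla2g1b thus rested in part on the groups in which both genes were near background.

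The rest of the secretory programme gave the frame for these values. Of 18 other digestive enzymes 17 had at least 10 UMIs, and 8 of them were higher in WTg by a log2 fold of 1 and 1 was lower, Klk1 (1300.0 CPM for EL1, 604 for WTg), which was picked out after its value had been seen. Their median log2 fold was 0.45, against 1.63 for the 8 members. The most abundant ones differed little: Try5, Prss2, Ctrb1, Cela1, Cela2a, Cpa1 and Cpb1 had log2 folds between -0.31 and 0.45, and Prss3, a trypsinogen, had 714 CPM in EL1 against 7983 in WTg. Among 11 relatives of the members with at least 10 UMIs, 3 were higher in WTg by that size and 0 lower, with a median of 0.46. Of these, Lpl, the lipoprotein lipase of other tissues, had 27.6 and 41.9 CPM, and the ribonucleases Rnase4 and Ang had log2 folds of 0.49 and 0.32, well under that of Rnase1.

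Of 10 transcription factors of acinar cells, 2 were higher in WTg by a log2 fold of 1 and 0 lower, with a median of 0.06. These were Bhlha15, also called MIST1, with 43.9 CPM in EL1 against 91.7 in WTg, and Gata6, with 2.05 against 13.1, both picked out after their values had been seen. Of the drivers whose motifs were searched, Ptf1a had 52.8 CPM in EL1 against 31.4 in WTg, with a log2 fold of -0.75 (-0.86 to -0.64). Within clusters it was lower in WTg in cluster 3 (83.9 CPM in EL1 and 25.7 in WTg) and cluster 12 (203 and 161). It was higher in WTg in cluster 5 (12.7 and 32.6) and cluster 9 (16.9 and 31.1). In clusters 5, 9 and 12 the intervals overlapped. Rbpjl had 129 and 135 CPM, Rbpj 34.5 and 35.8, and Nr5a2 18.1 and 22.3. Xbp1, which drives the secretory machinery, had 511 and 381 CPM, Foxa2 had 19.8 and 12.2 with a log2 fold of -0.70 (-0.88 to -0.52), and Gata4 30.5 and 37.4. Of 8 accessory proteins of the granule and of secretion, 4 were higher and 0 lower, with a median of 1.30. These were Sycn (10.7 and 785 CPM), Gp2 (183 and 1003 CPM), Cuzd1 (219 and 1002 CPM) and Dmbt1 (124 and 490 CPM), while Spink1, the trypsin inhibitor, had 3686 and 3782 CPM. Sycn, Dmbt1, Prss3 and Klk1 were among the leading genes of clusters as well.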

How the data were processed

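Single cell suspensions of 2 tumour samples were run on 10x Chromium 3′ v3.1. What the authors deposited are raw UMI counts for each gene in each barcode, made with Cell Ranger 6.0.2 per the file headers, and the submitters' processing notes also name GRCm38, R 4.1 and Seurat 4.0.5. Whether intronic reads were counted is not given in the sources used here. The sparse matrices were used, and the dense count tables, which hold barcodes with more than 200 and fewer than 10000 genes, gave equal values for the members and were an alternative.

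The members and lists were chosen with earlier results of these data known. Named were all 8 members, up to 8 genes of most UMIs in each list, and the genes most like each member. Coordinates come from GENCODE M21 (32158 of 32285 IDs matched) and promoters from RefSeq (GRCm38.p6).

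CPM used the UMI total of the cells in question. Intervals were exact at 95% (scipy 1.17.1): Poisson for a level, conditional binomial for a ratio, Clopper-Pearson for a share. A count of 0 was replaced by 3 in a ratio. Leiden clustering at resolution 1 (scanpy 1.11.5, leidenalg 0.10.2) used 2000 variable genes, 30 components and 15 neighbours, without the members, their relatives, Mettl3, Plk1 and the cell cycle lists of Seurat 5.3.0. A name needed at least 3 markers raised by a log2 ratio of 1 in at least 10% of a cluster's cells, and more than any other class. A marker of the class also had to be among the 10 leading genes, with no other class holding more there. Scrublet, at an expected rate of 2%, called 4 barcodes in each library, too few to be taken as working, and these were kept. Cells are not replicates, so no difference was tested. Alternatives were other cell filters, scalings (TMM, edgeR 4.0.16), clusterings and thinning depths. The functions for ratios, intervals and thinning were tested on simulated data.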

Additional observations from a re-analysis of the deposited data

Results flagged for a closer look

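Barcodes that the cell filter removed also held the members, and more of them in WTg. In barcodes with over 20% mitochondrial UMIs, 393 of EL1 and 440 of WTg, the 8 genes had 6646 CPM and 10857 CPM, a log2 ratio of 0.71 (0.67 to 0.75). In the other removed barcodes, 115 and 143, they had 2905 CPM and 12262 CPM, a log2 ratio of 2.08 (1.92 to 2.23).

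Some members pointed in opposite directions in different clusters, with counting intervals on either side of 0, and the difference between clusters was not tested. All log2 ratios are WTg over EL1. Cel was higher in WTg in cluster 3 (1.80) and cluster 9 (0.19) and lower in cluster 12 (-0.42) and in the macrophage-like cluster 10 (-1.57, on 40 and 25 UMIs). In cluster 9 the median cell went the other way for Cel, with 3926 CPM in EL1 and 2954 in WTg. Clps was higher in cluster 9 (0.34) and lower in cluster 3 (-0.078) and cluster 5 (-0.85). The cluster 5 value rests on a minority of Clps-rich EL1 cells, and the median cell there had 960 CPM in EL1 and 1766 in WTg. Pla2g1b was higher in cluster 3 (1.44) and lower in cluster 5 (-1.82), cluster 9 (-1.22), cluster 12 (-2.37) and cluster 10 (-3.48, on 6 UMIs and 1 UMI). Rnase1 was higher in cluster 5 (2.75), cluster 9 (5.17) and cluster 12 (4.71) and lower in cluster 3 (-0.63). The cluster 3 value rests on 91 EL1 UMIs in 9 of 25 cells, and the median cell had 0 in both libraries. Cluster 10 held most of the immune-like cells taken as background, 40 of 50 in EL1 and 47 of 67 in WTg. Its values thus have no independent background to be set against.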

How the results depend on the processing

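With 1 library a group, the spread between animals is not known and limits every comparison. No paired analysis was possible because there was a single library on each side and nothing was tested. Alternative settings gave 226 values, of which 88 were called the same as the main value, 137 were called moved and 1 changed sign. For levels, ratios and shares of cells, the same meant inside the main value's exact interval. For counts of members and values over all genes it meant within a fixed factor. For the mean number of members per cell it meant inside an interval over cells. Causes of these moves were not tested. Over all cells no member changed direction in 7 alternatives each. Amy2a5 ranged from 0.88, with each cell weighted equally, to 1.21, and so crossed the fold of 2.

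TMM scaling moved the log2 ratio of all genes by 0.13. The summed 8 genes over all cells moved from 0.85 to 0.98 with it, and to 0.82 with all deposited barcodes, 0.92 with totals without digestive enzymes, 0.86 in the dense table and 0.80 with each cell weighted equally. Named classes depended on the clustering. The summed level of acinar-like cells of EL1 was 33849 CPM at resolution 2, 48842 CPM with the other digestive enzymes left out of clustering, 41445 CPM with doublets removed and 37284 CPM under the stricter cell filter. That of WTg was 42639 CPM at resolution 0.5, 45206 CPM with the members kept in clustering, 50568 CPM with the enzymes left out, 44418 CPM with doublets removed and 44108 CPM under the stricter filter. The acinar-like log2 ratio, 0.16, was 0.40 at resolution 2, 0.050 with the enzymes left out, 0.10 with doublets removed and 0.24 under the stricter filter. Of the members higher by a log2 ratio of 1, 2 in the acinar-like class, there were 5 at resolution 2 and 3 under the stricter filter. Cel in this class reversed at resolution 2, from -0.09 to 0.44.

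In neuroendocrine-like cells the summed level of EL1 was 20906 CPM at resolution 0.5, 21487 CPM at resolution 2, 21035 CPM with the members kept, 21118 CPM with the enzymes left out and 21479 CPM with doublets removed. That of WTg was 30284 CPM at resolution 0.5 and 31498 CPM at resolution 2. Their log2 ratio, 0.69, was 0.53, 0.55 and 0.73 at resolution 0.5, at resolution 2 and with doublets removed. The 5 higher members of this class were 4 at resolution 0.5 and 3 at resolution 2. No value could be had for acinar-like cells of EL1 at resolution 0.5 (9 cells), or for neuroendocrine-like cells of WTg with the members kept (12 cells), with the enzymes left out (0) and under the stricter filter (0). Such WTg cells were not absent there. Clusters with 98, 104 and 137 WTg cells, in that order of settings, had 7, 6 and 6 neuroendocrine markers raised. They stayed unnamed because none of these markers was among their 10 leading genes.

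The mean number of members per cell, 3.45 in EL1 and 3.93 in WTg at 2000 UMIs, was 3.01 and 3.34 at 1000 UMIs, 4.07 and 4.73 at 5000 UMIs and 4.72 and 5.44 without thinning, since a deeper cell shows more genes.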
